A study of Caenorhabditis elegans with 4 samples.

Results

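The heat shock, chaperonin and proteasome genes form a set of 38 of the 19985 protein-coding genes in the Ensembl annotation of Caenorhabditis elegans. They form a list of gene names, and the rule that places a gene in it uses no peak value. The members were, however, chosen with earlier results of these data known, so the list is not independent of the peaks. The set holds 18 chaperones and co-chaperones, the heat shock factor gene hsf-1, the 8 cct genes of the cytosolic chaperonin, and 11 proteasome or ubiquitin genes. Ensembl names located 36 members. The remaining 2, hsp-16.11 and hsp-16.49, were located by their RefSeq symbols at identical coordinates, because Ensembl gives both copies of a duplicated gene pair the names hsp-16.1 and hsp-16.48.

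The genes were examined in peak lists from chromatin immunoprecipitation and sequencing (ChIP-seq) of UNC-39 in whole L3 larvae of mixed sex. All 4 biological replicates came from strain OP186, in which the unc-119(ed3) III background carries the transgene wgIs186. This transgene expresses UNC-39 with a GFP-FLAG tag at its C terminus, and the antibody is entered in the labels as unc-39. There was 1 group, made from 1 transgenic line, with no untreated, mutant or heat-stressed group, so groups could not be tested against each other, and the replicates show only how stable a value was. Because whole animals were used, a peak cannot be assigned to a tissue, and the tagged transgene product cannot be told apart from the endogenous protein. The control experiment that the labels point to was not analysed here.

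Chaperones bind unfolded proteins and help them to fold. Hsp70 proteins work with J-domain co-chaperones and nucleotide exchange factors, small heat shock proteins hold unfolding proteins in solution, and the cct subunits assemble into a ring-shaped chamber in which actin and tubulin fold. Proteins that cannot be refolded are tagged with ubiquitin and degraded by the proteasome, a barrel-shaped core of pas and pbs subunits capped by a regulatory particle of rpn and rpt subunits. HSF-1 is the transcription factor that activates the stress-inducible chaperone genes by binding heat shock elements, which are repeats of GAA and its reverse complement. UNC-39 is a homeodomain protein of the sine oculis homeobox family that acts in mesodermal and ectodermal development.

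Each relaxed list holds peaks and background together, and the signal of a peak is the authors' own value, used here only to order peaks within a list. A gene was counted when the summit of a peak lay from 2000 bp upstream to 200 bp downstream of one of its transcript starts, which is called its promoter window here. The pooled list held 12797 peaks, replicates 1 and 2 held 30000 each, replicate 3 held 13225 and replicate 4 held 29529. The list thresholded by the irreproducible discovery rate (IDR), a measure of how alike replicates rank peaks, held 110, of which 86 were nuclear and none had a signal under 42.0. Ranks count nuclear peaks from the strongest. A percentile places the strongest promoter peak of a gene among those of all protein-coding genes with a peak in the same list, with 100 as the highest, so the median over all such genes is 50 in each list.

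Promoter peaks were present at more of the 38 genes than of protein-coding genes at large in every relaxed list. In the pooled list 23 members (60.5%) had a promoter peak, against 29.2% of all protein-coding genes. The number was 27 in replicate 1 (71.1% against 53.1%), 27 in replicate 2 (71.1% against 53.8%), 19 in replicate 3 (50% against 31.5%) and 25 in replicate 4 (65.8% against 54.5%). A peak in all 4 replicate lists was found at 9 members (23.7%), namely hsp-60, hsp-90, dnj-19, cct-8, ubq-1, ubq-2, rpn-1, rpt-2 and cdc-48.1, against 10.7% of all genes. The thresholded list held a promoter peak for 1 member (2.63%), cdc-48.1, against 0.405% of all genes. Only hsp-16.1 and hsp-16.11 had no promoter peak in any list, against 13% of all genes.

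The lists differ in length, so the members were also counted among the strongest peaks of each list. Within the strongest 10000 nuclear peaks lay promoter peaks of 18 members in the pooled list (24.2% of all genes), 18 in replicate 1 (22.9%), 18 in replicate 3 (25.5%) and 16 in replicate 4 (25.1%). These counts are 47.4% of the set, or 42.1% in replicate 4. In replicate 2 the number was 9 (23.7%), against 23.2% of all genes, so at equal length the set did not stand above other genes in that library. Within the strongest 1000 nuclear peaks lay 6 members in the pooled list (3.49% of all genes), 4 in replicate 1 (2.93%), 1 in replicate 2 (2.59%), 3 in replicate 3 (3.84%) and 5 in replicate 4 (3.66%). Only 3 members (7.89%), cdc-48.1, dnj-13 and dnj-19, lay there in 2 or more replicates, against 1.82% of all genes.

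**Figure D1:**
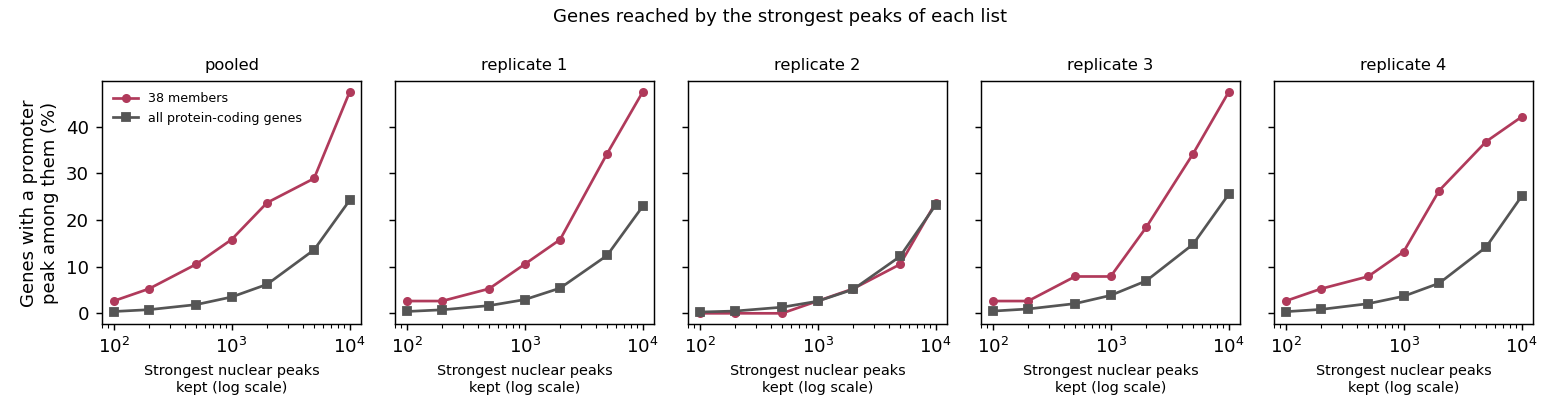
Share of genes, in percent, with a promoter peak among the strongest nuclear peaks, plotted against the number of strongest peaks taken, for the 38 members and for all protein-coding genes in the pooled list and each replicate. The members' line lies above that of all genes at every point in the pooled list and in replicates 1, 3 and 4. In replicate 2 the lines run together, ending at 23.7% and 23.2% for the strongest 10000.

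Counted by class, proteasome or ubiquitin genes had a pooled promoter peak at 8 of 11 (72.7%), chaperones at 10 of 18 (55.6%) and chaperonin subunits at 4 of 8 (50%). The share of all genes was 29.2%. Proteasome or ubiquitin genes with a promoter peak numbered 10, 9, 6 and 11 in replicates 1 to 4, those of chaperones 11, 10, 9 and 10, and those of chaperonin subunits 5, 7, 3 and 4. The shares of all genes there were 53.1%, 53.8%, 31.5% and 54.5%. In replicate 4 the chaperonin subunits (50%) were thus below all genes. The chaperones were near all genes in replicates 2 and 4, at 55.6% in each. A peak in all 4 replicates was found at 5 of 11 proteasome or ubiquitin genes (45.5%), 3 of 18 chaperones (16.7%) and 1 of 8 chaperonin subunits (12.5%). For all genes the share was 10.7%, near that of the chaperonin subunits. Among the strongest 10000 nuclear peaks lay 8 of the 11 proteasome or ubiquitin genes in the pooled list and 5, 4, 6 and 7 in the replicates, a larger share than that of all genes in every list. The chaperones numbered 6 there in the pooled list and 7, 4, 8 and 6 in the replicates, and the chaperonin subunits 4, then 5, 1, 3 and 3. In replicate 2 the shares of chaperones (22.2%) and chaperonin subunits (12.5%) were below the 23.2% of all genes. Among the strongest 10000 of the other lists both were above that of all genes. A single gene shifts a class of 8 by 12.5 percentage points, and no test between the classes was made. The order of the classes rested on the width of the promoter window. With 1000 bp upstream, a pooled peak was found at 9 of 18 chaperones (50%), 5 of 11 proteasome or ubiquitin genes (45.5%) and 3 of 8 chaperonin subunits (37.5%), and with 500 bp at 33.3%, 36.4% and 37.5%. The shares of all genes were 19.2% with 1000 bp and 12.9% with 500 bp.

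**Figure D2:**
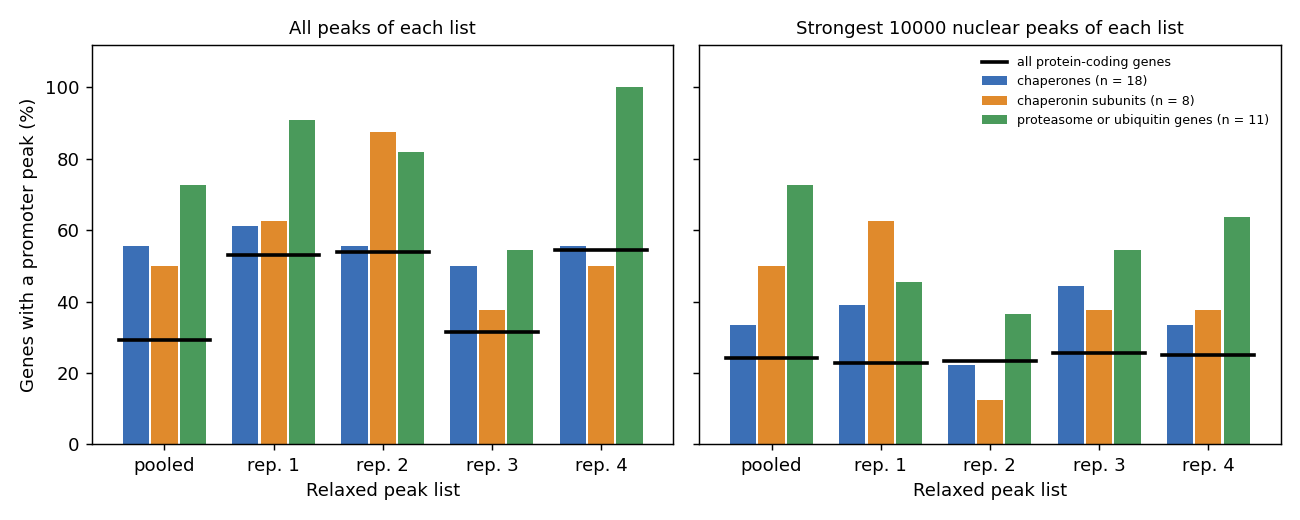
Share of each class with a promoter peak, in percent, for all peaks of each list (left) and its strongest 10000 nuclear peaks (right), with a black line for all protein-coding genes. Proteasome or ubiquitin genes lie above the line in every list, from 54.5% in replicate 3 to 100% in replicate 4 on the left, whereas chaperonin subunits on the left range from 37.5% in replicate 3 to 87.5% in replicate 2. In replicate 4 the chaperonin subunits on the left lie below the line, at 50%.

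A promoter peak was not always a strong one, and how strong the peaks of members were varied between lists. The median percentile of members with a peak was 51.9 in the pooled list, with 13 of 23 above 50. It was 74.97 in replicate 1, 45.7 in replicate 2, 71.7 in replicate 3 and 85.1 in replicate 4, an SD of 16.8 over the 4 replicates. By class, the pooled median was 61.0 for the chaperones, 78.3 for the 4 chaperonin subunits and 47.1 for the proteasome or ubiquitin genes. Within the strongest 1000 pooled peaks lay 3 of 11 proteasome or ubiquitin genes (27.3%), 3 of 18 chaperones (16.7%) and 0 of 8 chaperonin subunits, against 3.49% of all genes. The q-value of the strongest promoter peak was below 0.05 for 1 member in the pooled list (0.265% of all genes), 1 in replicate 1 (0.455%), 0 in replicate 2 (0.05%), 19 in replicate 3 (31.5%) and 15 in replicate 4 (20.6%), and all 13225 peaks of replicate 3 passed that threshold.

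**Figure D3:**
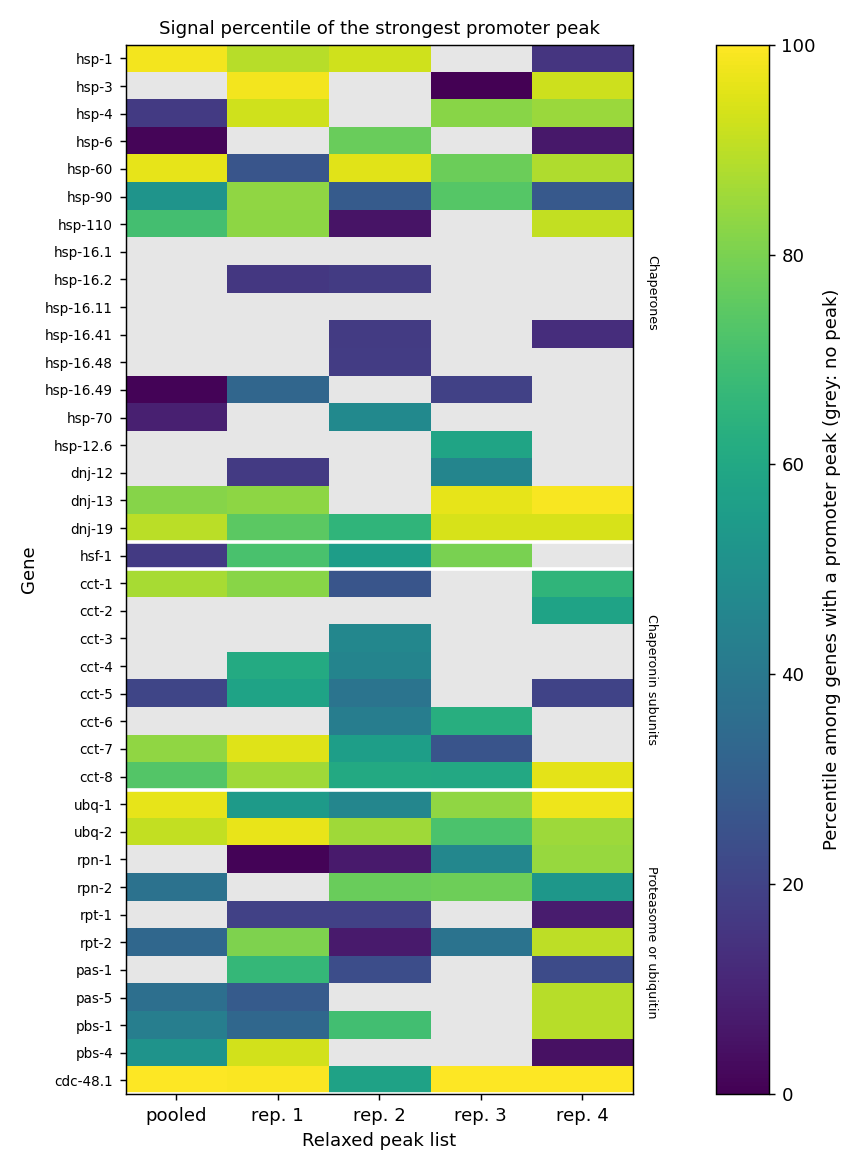
Percentile of the strongest promoter peak of each member in the pooled list and the 4 replicates, with members grouped by class and grey cells where no peak was found. The row of cdc-48.1 is at 99.5 or above in the pooled list and replicates 1, 3 and 4 and at 57.5 in replicate 2, and the rows of hsp-16.1 and hsp-16.11 are grey.

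The strongest peak of the set was that of cdc-48.1, which encodes a homologue of the AAA ATPase p97 that extracts ubiquitin-tagged proteins for degradation. Its pooled peak had a signal of 69.7 and nuclear rank 10, with the summit 162 bp upstream of the transcript start. The peak had signal 22.1 and rank 46 in replicate 1, 12.7 and rank 9 in replicate 3, and 22.02 and rank 11 in replicate 4. In replicate 2 it had signal 10.2 and rank 9849. The summits of the 4 replicates lay from 2 to 37 bp from the pooled summit, so the position was shared by all replicates while replicate 2 ranked the peak far lower. The deposited q-value of the pooled peak was 0.0145, and no other member passed a q of 0.05 in the pooled list. The 201 bases around the summit, on the strand of the gene at chrII:10563469-10563669 (minus strand, WBcel235, which is the same as ce11), are shown because this was the member in the thresholded list. All sequences were read from the RefSeq copy of that genome, and capitals mark matches to the elements defined further on, of which this stretch held none.
cdc-48.1: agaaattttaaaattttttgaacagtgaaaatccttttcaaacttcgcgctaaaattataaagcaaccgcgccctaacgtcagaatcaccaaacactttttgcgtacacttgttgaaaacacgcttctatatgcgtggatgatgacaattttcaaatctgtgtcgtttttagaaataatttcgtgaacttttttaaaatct

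Among the Hsp70 genes the constitutive cytosolic member hsp-1 had the strongest pooled peak, with signal 39.0 and rank 129, just under the lowest signal of the thresholded list. Its summit lay 389 bp upstream of the start. In replicate 1 the peak had signal 12.5 and rank 2142, in replicate 2 15.1 and rank 1474, in replicate 4 2.48 and rank 22673, and replicate 3 held no hsp-1 promoter peak. The gene was thus in the upper part of replicates 1 and 2 and near the end of replicate 4. The window at chrIV:17278470-17278670 (plus strand) held 1 short heat shock element, in capitals, of the form GAANNTTC.
hsp-1: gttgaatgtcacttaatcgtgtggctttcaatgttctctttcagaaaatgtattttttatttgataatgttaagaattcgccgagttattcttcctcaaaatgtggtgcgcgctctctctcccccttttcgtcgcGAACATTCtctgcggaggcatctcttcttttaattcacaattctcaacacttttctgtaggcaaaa

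The stress-inducible hsp-70 had a weak pooled peak (signal 16.9, rank 11449), 480 bp upstream of its start and within an intron of uggt-2. Replicate 2 held a peak 5 bp away at rank 12636, and replicates 1, 3 and 4 held none. The endoplasmic reticulum genes hsp-3 and hsp-4 encode the worm BiP proteins. The hsp-3 gene had no pooled or replicate 2 peak, but replicate 1 placed a peak 18 bp upstream of its start at rank 225 and replicate 4 another at 666 bp and rank 1140, whereas in replicate 3 the rank was 13145. The hsp-4 pooled peak had rank 10045, and its strongest peaks in replicates 1, 3 and 4 had ranks 1323, 1555 and 2594. For these genes the replicates therefore placed the strongest peak at different points of the promoter. The mitochondrial Hsp70 gene hsp-6 had a pooled peak of rank 12537, with ranks 4998 in replicate 2 and 26562 in replicate 4 and none in replicates 1 and 3. The pooled summit lay 534 bp upstream of hsp-6 and 66 bp upstream of C37H5.5.

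The mitochondrial chaperonin gene hsp-60 also had its pooled peak overlapped in all 4 replicates. Its pooled signal was 34.7 (rank 252), 618 bp upstream. The replicate signals were 6.92 (rank 19499), 16.3 (rank 892), 4.28 (rank 2037) and 6.34 (rank 2012), and the summits lay from 2 to 46 bp from the pooled summit. Replicate 2 ranked this peak highest and replicate 1 lowest, whereas cdc-48.1 was ranked lowest by replicate 2. The pooled summit was also 195 bp upstream of Y22D7AL.10, annotated in RefSeq as the mitochondrial heat shock protein that forms the lid of this chaperonin in other species, so the peak lies between the genes of both partners. The window at chrIII:1619024-1619224 (plus strand) is shown because it was 1 of 2 member peaks with a heat shock element of 3 units, in capitals, defined as GAANNTTC followed, after any pair of bases, by GAA.
hsp-60: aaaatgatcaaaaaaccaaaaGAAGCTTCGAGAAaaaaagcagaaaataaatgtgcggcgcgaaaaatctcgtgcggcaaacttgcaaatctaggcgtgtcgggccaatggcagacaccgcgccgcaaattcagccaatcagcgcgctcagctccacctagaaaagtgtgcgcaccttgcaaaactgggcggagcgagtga

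The Hsp90 gene hsp-90 had a pooled peak of signal 20.5 and rank 5151 in its own intron, 365 bp upstream of one of its transcript starts. The same summit was 310 bp upstream of C47E8.4. Replicates 1 and 3 held a peak 10 and 40 bp away, at ranks 3421 and 2452, while the strongest peaks of replicates 2 and 4 lay elsewhere, at ranks 18684 and 18129. The gene hsp-110, whose product is an exchange factor of Hsp70, had signal 22.97 and rank 2925, 178 bp upstream. It was also 266 bp upstream of rpn-3, a proteasome regulatory subunit outside the set, and replicates 1 and 4 held peaks within 36 and 147 bp of it at ranks 3575 and 1429. Replicate 2 had only a weak peak elsewhere in the promoter window (rank 27529) and replicate 3 none. This window, chrIII:8446987-8447187 on the minus strand, held 2 heat shock elements of 3 units, in capitals.
hsp-110: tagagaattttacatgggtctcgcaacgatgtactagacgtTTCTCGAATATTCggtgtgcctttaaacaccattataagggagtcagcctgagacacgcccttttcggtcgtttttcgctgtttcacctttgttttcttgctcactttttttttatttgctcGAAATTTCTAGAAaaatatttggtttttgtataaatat

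Of the J-domain genes, which deliver substrates to Hsp70, dnj-13 and dnj-19 recurred near the top. The pooled dnj-13 peak had signal 25.5 and rank 1646, 76 bp upstream. Its replicate signals were 11.4 (rank 3550) in replicate 1, 7.11 (rank 260) in replicate 3 and 12.095 (rank 120) in replicate 4, with summits from 1 to 22 bp from the pooled summit, and replicate 2 held none. The dnj-19 peak had signal 28.5 and rank 838, 384 bp upstream of dnj-19 and 12 bp upstream of the nuclear receptor gene nhr-47. Its signal was 6.22 (rank 450) in replicate 3, 7.69 (rank 868) in replicate 4 and 10.4 (rank 5332) in replicate 1, with summits from 13 to 103 bp away. The strongest dnj-19 peak of replicate 2 was 1235 bp upstream, with signal 10.9 and rank 7776. Both genes were thus strong in replicates 3 and 4 and not in replicate 2. The third J-domain gene, dnj-12, had no pooled peak and only weak ones in replicates 1 and 3 (ranks 22898 and 6052). The dnj-13 window, chrII:11545525-11545725 on the plus strand, is shown because its summits lay within 22 bp of the pooled one in the libraries that had the peak. These 201 bases held none of the elements searched, whereas the 301 bases around the summit held 1 short heat shock element.
dnj-13: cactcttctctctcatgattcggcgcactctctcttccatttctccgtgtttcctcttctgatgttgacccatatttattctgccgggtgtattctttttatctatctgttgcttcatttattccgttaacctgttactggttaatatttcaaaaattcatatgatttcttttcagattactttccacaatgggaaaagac

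Of the 6 hsp-16 genes, small heat shock genes that are almost silent until heat stress, 1 had a pooled promoter peak (16.7%), against 29.2% of all genes and 9 of the 12 other chaperones (75%). In replicates 1 to 4 the numbers were 2, 3, 1 and 1 of 6, against 53.1%, 53.8%, 31.5% and 54.5% of all genes. The 12 other chaperones had 9, 7, 8 and 9. In replicate 2, hsp-16.2 and hsp-16.41 were both counted through 1 shared peak. The pooled peak was that of hsp-16.49, with signal 16.43 and rank 12573, at 1929 bp upstream and 650 bp from the start of T27E4.1, beside annotated small nuclear RNA genes. At the same place the signal was 7.29 (rank 17251) in replicate 1 and 2.37 (rank 9912) in replicate 3. In replicate 2 hsp-16.48 had a peak 1349 bp upstream (signal 7.59, rank 22593). The hsp-16.2 and hsp-16.41 pair had a summit inside its cluster of 1542 bp in 1 of 5 relaxed lists, with signal 7.55 and rank 22856 in replicate 2. This summit lay 39 bp downstream of the hsp-16.41 start, and its peak spanned chrV:1805017-1805416. Further weak peaks lay 928 bp upstream of hsp-16.2 in replicate 1 (signal 6.37, rank 23283) and 1407 bp upstream of hsp-16.41 in replicate 4 (signal 2.40, rank 23642). The 3312 bp cluster of hsp-16.1, hsp-16.48, hsp-16.11 and hsp-16.49 held 0 summits in all 5 relaxed lists. The gene pair hsp-16.1 and hsp-16.48 is identical to hsp-16.11 and hsp-16.49 over 1325 of 1325 bases, in inverted order. A read from this duplicated stretch matches both copies equally well, and the sources used here do not state how such reads were handled, so the lack of peaks there cannot be told apart from a loss of reads with more than 1 match. The hsp-16.2 pair is no member of this exact repeat. The divergent promoter regions are shown because each held a 3-unit heat shock element, in capitals, and no summit. The first is at chrV:9087833-9088032 (plus strand, with the identical copy at chrV:9089865-9090064 on the minus strand), and the other at chrV:1804958-1805177 (plus strand). The replicate 2 peak of hsp-16.41 reaches into this latter region, with its summit outside it.
hsp-16.1 and hsp-16.48: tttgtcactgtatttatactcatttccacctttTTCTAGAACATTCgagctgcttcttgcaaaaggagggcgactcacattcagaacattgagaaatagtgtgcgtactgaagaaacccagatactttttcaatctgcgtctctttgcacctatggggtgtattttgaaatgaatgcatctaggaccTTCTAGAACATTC
hsp-16.2 and hsp-16.41: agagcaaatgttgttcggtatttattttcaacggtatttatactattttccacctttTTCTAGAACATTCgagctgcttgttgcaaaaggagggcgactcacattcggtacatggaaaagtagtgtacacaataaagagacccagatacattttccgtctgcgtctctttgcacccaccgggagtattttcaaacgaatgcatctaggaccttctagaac

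The remaining small heat shock gene, hsp-12.6, had a peak only in replicate 3, at rank 4270 and 1291 bp upstream. The gene of the regulator itself, hsf-1, had a pooled peak of signal 17.5 and rank 10021, 69 bp upstream of a start. Its strongest replicate peaks lay 1571 bp upstream in replicate 1 (signal 10.02, rank 6247), 559 bp upstream of another start in replicate 2 (signal 10.05, rank 10423) and 1936 bp upstream in replicate 3 (signal 4.40, rank 1818), with none in replicate 4. Weaker peaks lay 42 bp from the pooled summit in replicate 1 (signal 6.87, rank 19817) and 46 bp from it in replicate 2 (signal 9.02, rank 14641). The strongest hsf-1 peaks of the replicates thus lay at different places, while 2 of 4 replicates held a weak peak at the pooled summit.

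The chaperonin subunits, which occur together in 1 complex, had peaks that varied from gene to gene. The cct-1 peak had signal 27.3 and rank 1101, 245 bp upstream of cct-1 and 175 bp upstream of mig-5, a Dishevelled gene of Wnt signalling. Its signal was 11.3 (rank 3751) in replicate 1, 8.10 (rank 19426) in replicate 2 and 4.42 (rank 6983) in replicate 4, with summits from 4 to 11 bp away, and replicate 3 held no cct-1 peak. The cct-7 peak had signal 25.95 and rank 1478, 460 bp upstream. Its summit was nearer to T10B5.4, in an exon of that gene and 3 bp downstream of its start. At the same place the signal was 14.8 (rank 787) in replicate 1 and 10.1 (rank 10215) in replicate 2. In replicate 3 the strongest cct-7 peak lay 193 bp downstream of a start, with signal 2.50 and rank 8850, and replicate 4 had none. Of the replicates, replicate 1 ranked both cct-1 and cct-7 highest. The cct-8 peak (signal 23.5, rank 2596) lay in its own intron, at the same place in replicates 1 and 2 only, while the strongest cct-8 peak of replicate 4 was 528 bp upstream of another start at rank 524. The cct-5 peak had signal 17.7 and rank 9553 at 1899 bp upstream. The other subunits had no pooled peak. Of these, cct-2 had 1 peak, in replicate 4 (rank 8851), cct-3 had 1, in replicate 2 (rank 12998), cct-4 had peaks in replicates 1 and 2 (ranks 8862 and 13345), and cct-6 in replicates 2 and 3 (ranks 14119 and 3761). Replicate 3 overlapped 0 of the 4 pooled chaperonin peaks, against 29.4% of the pooled promoter peaks of all genes.

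Both ubiquitin genes had peaks in every list but the thresholded one. The polyubiquitin gene ubq-1 had a pooled peak of signal 34.4 and rank 265 in its own intron, 255 bp upstream of one of its starts. Peaks at this place were found in all 4 replicates, with signals of 6.37 (rank 23316), 7.78 (rank 21367), 4.66 (rank 1462) and 9.95 (rank 297) in replicates 1 to 4 and summits from 33 to 65 bp away. The strongest ubq-1 peaks of replicates 1 and 2 lay 197 and 616 bp upstream of another start, with signals of 8.63 and 9.35 and ranks 10647 and 13149. The gene ubq-2, which encodes ubiquitin fused to a ribosomal protein, had signal 29.2 and rank 727 at 1146 bp upstream, in an exon of frg-1. This peak had signals of 9.51 (rank 7604) in replicate 1, 13.4 (rank 2981) in replicate 2 and 5.94 (rank 2580) in replicate 4. Replicate 1 had a stronger ubq-2 peak 31 bp downstream of the start (signal 15.6, rank 545), and that of replicate 3 lay 433 bp upstream (signal 3.93, rank 2694). The ubiquitin peaks were thus within the strongest 1000 of the pooled list, but each replicate ranked them differently.

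In the pooled list the proteasome subunits had lower signals than the ubiquitin genes. The base ATPase rpt-2 had signal 18.7 and rank 7723 at 107 bp upstream, and 194 bp upstream of aps-1, an adaptin gene. Replicate 4 held this peak at rank 1558 with its summit 79 bp away, replicate 2 at rank 26737, 23 bp away, and replicate 1 had a peak overlapping it 195 bp away at rank 8428. The rpn-2 peak (signal 19.1, rank 7093, 1250 bp upstream) was held by replicates 2 and 3 at ranks 5029 and 1990 within 2 and 6 bp, and lies in an exon of C23G10.7. The regulatory subunits rpn-1 and rpt-1 had no pooled peak. The rpn-1 gene had a peak in every replicate at different places and ranks, from 2719 in replicate 4 to 29577 in replicate 1, and rpt-1 had ranks 22025, 22034 and 26015 in replicates 1, 2 and 4. Among the core genes pbs-4, pbs-1 and pas-5 had pooled signals of 20.5, 19.5 and 18.98 and ranks 5203, 6425 and 7243, and pas-1 had none. Of the 4 core genes, 0 had a peak in replicate 3 (31.5% of all genes) and 4 in replicate 4 (54.5% of all genes). In replicate 4 the strongest pas-5 peak had rank 1710 and that of pbs-1 rank 1740, between the rank 297 of ubq-1 and the rank 2580 of ubq-2. These peaks lay 851 and 234 bp upstream, whereas the pooled ones lay 1662 and 1963 bp upstream. At the pooled place replicate 4 held a pas-5 peak of rank 8417 and no pbs-1 peak.

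The rpt-2 window, chrV:6017631-6017921 on the minus strand, is shown because it held the letters TCAGGTTTC, the MEF3 element bound by sine oculis homeobox proteins in vertebrates. The match, in capitals, begins 16 bp downstream of the rpt-2 start, inside the coding sequence and 127 bp from the summit.
rpt-2: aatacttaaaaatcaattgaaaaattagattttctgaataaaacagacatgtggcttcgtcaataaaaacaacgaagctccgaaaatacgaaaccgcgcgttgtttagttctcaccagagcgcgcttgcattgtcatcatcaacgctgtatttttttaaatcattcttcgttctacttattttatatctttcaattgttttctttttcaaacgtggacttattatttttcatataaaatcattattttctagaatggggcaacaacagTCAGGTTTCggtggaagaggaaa

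Each pooled member peak was overlapped by at least 1 base in at least 1 replicate, since 0 of 23 lacked any overlap, against 0.96% of all genes with a pooled promoter peak. The strongest pooled peak was overlapped at 20 of 23 members in replicate 1 (69.7% of all genes with a pooled peak), 15 in replicate 2 (71.7%), 8 in replicate 3 (29.4%) and 14 in replicate 4 (49.4%). All 4 replicates overlapped it at 3 members, cdc-48.1, hsp-60 and ubq-1 (13%), against 7.83% of all genes. Replicates 1 and 2 hold 30000 peaks each, replicate 4 holds 29529 and replicate 3 holds 13225. Whether list length accounts for these differences in overlap was not tested.

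Pooled summits lay closer to the starts of the members than to those of genes at large. The median distance was 480 bp upstream for the members and 759 bp for all genes, and 12 of 23 (52.2%) lay within 500 bp upstream, against 28.2% of all genes. The difference was smaller in replicate 2, where 29.6% of members and 23.6% of all genes lay within that distance. The chaperones had a median of 434.5 bp, the chaperonin subunits 716 bp and the proteasome or ubiquitin genes 914 bp, and 6 members (26.1%) lay beyond 1000 bp, against 39.7% of all genes. Just inside the promoter window were the summits of pbs-1 at 1963 bp and hsp-16.49 at 1929 bp, and just outside was that nearest to rpt-1, 299 bp downstream. The pooled summit nearest to cct-6 lay farther out, 2925 bp upstream.

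**Figure D4:**
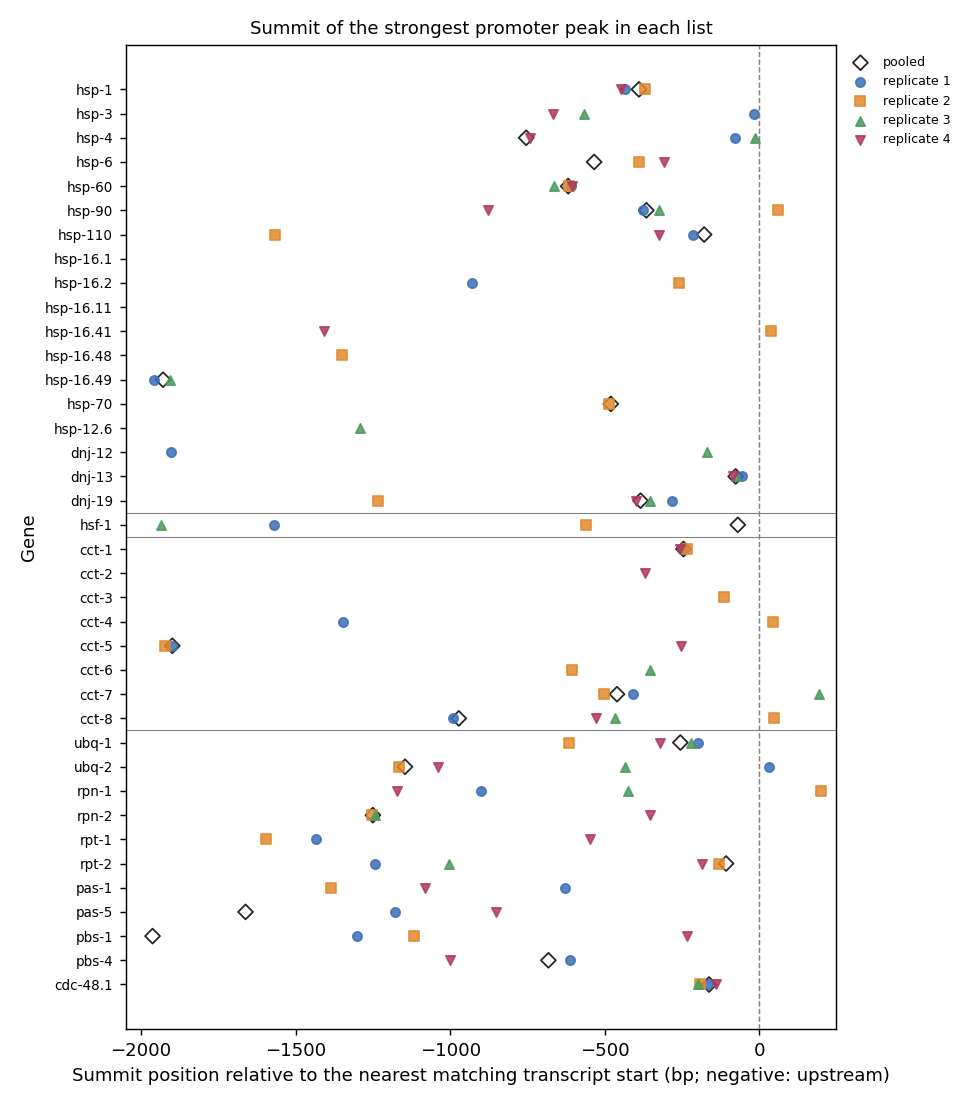
Position of the summit of the strongest promoter peak relative to the nearest matching transcript start, in bp with upstream negative, for each member in each list. The summits of cdc-48.1 and dnj-13 lie almost on top of each other, whereas those of hsf-1 range from 69 to 1936 bp upstream.

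Many of these peaks belonged to more than 1 gene. The strongest pooled peak of 13 of 23 members (56.5%) also lay in the promoter window of another protein-coding gene, against 37.2% of all genes, and that of 8 members (34.8%) lay within 300 bp of an annotated non-coding gene, against 716 of 5835 of all genes. The share inside another protein-coding gene was 34.8% for members and for all genes. The median GC content of the 301 bases around the summit was 39.2% for the members and 39.9% for all nuclear pooled peaks. Which gene, if any, is served by a shared peak was not tested.

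The promoters were also searched for heat shock elements. The 3-unit element was searched on both strands in the 300 bases from 250 before to 50 after the annotated start of each gene. Only this outermost start was used, so further transcript starts, which count for the promoter window, were not searched. It was present at 11 of 18 chaperones (61.1%), 0 of 8 chaperonin subunits and 1 of 11 proteasome or ubiquitin genes, pas-1 (9.09%), against 1.97% of all nuclear protein-coding genes. The 11 chaperones include the 6 hsp-16 genes, which lie as divergent pairs that share promoter regions, and 4 of them form identical copies. An element there is thus counted at more than 1 gene, so the 11 are not independent. A pooled summit lay in the same 300 bases at 1 of the 12 members with an element (8.33%, hsp-110) and at 6 of the 26 without (23.1%), against 5.01% of all genes and 3.82% of all genes with an element. Counting all 5 relaxed lists, a summit lay there at 3 of 12 members with an element (25%, hsp-110, hsp-16.41 and dnj-12), against 28.5% of all genes with one. It lay there at 15 of 26 members without an element (57.7%), against 29.5% of all genes without one. In the wider promoter window a pooled peak was found at 5 of 12 members with an element (41.7%, against 25.7% of all genes with one) and at 18 of 26 without (69.2%, against 29.2%). Among the 12 are the 4 genes of the duplicated hsp-16 cluster, where a lack of peaks cannot be told apart from a loss of reads, and no test was made.

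**Figure D5:**
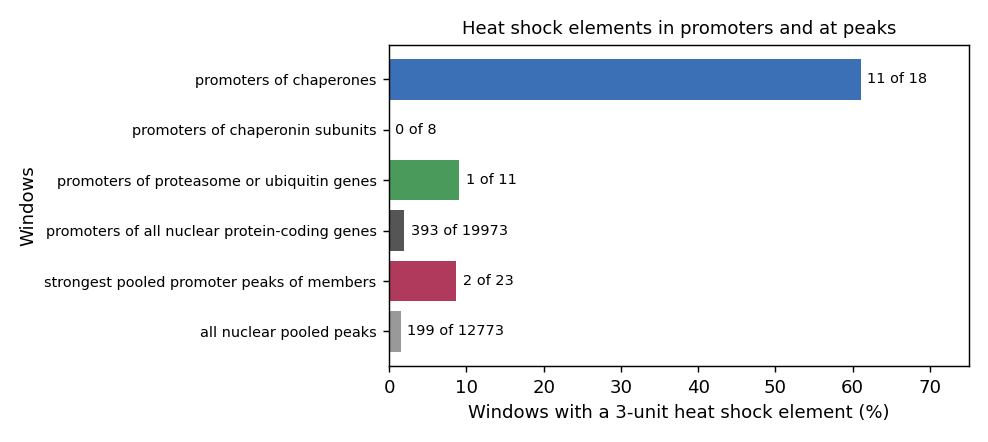
Share of windows, in percent, that hold a 3-unit heat shock element, for the 300-base promoters of each class and of all nuclear protein-coding genes, and for the 301 bases around pooled peak summits, with the counts beside the bars. The chaperone promoters reach 61.1% (11 of 18), whereas the members' peaks reach 8.7% (2 of 23) and all pooled peaks 1.56%. The 11 include the 6 hsp-16 genes, whose paired promoters share elements.

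At the peaks themselves the 3-unit element was found in the 301 bases around the summit of 2 of 23 members (8.7%, hsp-60 and hsp-110), against 1.56% of all nuclear pooled peaks. The short form GAANNTTC, which every 3-unit element contains, was found at 9 of 23 (39.1%), against 17.6%. The core TGATAC, known from sine oculis homeobox proteins of other species, was found at 2 of 23 (8.7%), against 9.67% of pooled peaks, and in 0 of 38 promoters, against 9.53% of all promoters. TCAGGTTTC was found at 1 of 23 peaks (4.35%, rpt-2), against 0.36%. All were searched on both strands, and a match is a description of the letters and not of binding.

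Genes with related roles outside the set were counted in the same way, without a test. Of 117 further genes of protein folding and degradation, 45 (38.5%) had a pooled promoter peak, against 29.2% of all genes. A peak in all 4 replicates was found at 20 (17.1%), against 10.7%, and 0 were in the thresholded list, against 0.405%. The pooled share was 10 of 19 for organelle chaperones and the unfolded protein response (52.6%), 5 of 9 for other small heat shock proteins (55.6%), 12 of 26 for other J-domain genes (46.2%), 7 of 17 for chaperone cofactors (41.2%), 6 of 24 for other proteasome subunits (25%) and 5 of 22 for ubiquitin, p97 and proteasome regulators (22.7%). The shares of the other proteasome subunits and of the regulators were below the 29.2% of all genes. Among the members, 2 of 4 regulatory-particle genes and 3 of 4 core genes had a pooled peak, so the proteasome genes in the set are no measure of the whole complex. The strongest pooled peaks of each list, in order of signal, were those of ubl-5, pdi-2 and pdi-3 among the organelle genes (ranks 654, 793 and 924) and of dnj-20, dnj-2 and dnj-29 among the J-domain genes (ranks 797, 1255 and 1362). Among the cofactors they were bag-1, unc-23 and fkb-6 (ranks 979, 1576 and 3023), and among the small heat shock genes hsp-12.1, hsp-12.2 and hsp-25 (ranks 6062, 7019 and 7345). The regulators were led by skn-1, a stress-response transcription factor gene (rank 1640), then uba-1 and ufd-1 (ranks 4235 and 5446). The proteasome ATPase gene rpt-4, at rank 533 and 92 bp upstream, had a strongest promoter peak in every replicate, at ranks 1084, 165, 418 and 3991, and was followed by rpt-5 (rank 1992) and by rpn-3 (rank 2925), whose peak is that of hsp-110. The 76 cytosolic ribosomal protein genes had a pooled peak at 52 (68.4%), one in all 4 replicates at 29 (38.2%), and were within the strongest 1000 of 2 or more replicates at 12 (15.8%), where the members had 60.5%, 23.7% and 7.89%.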

How the data were processed

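UNC-39 ChIP-seq peak lists on ce11 from 4 biological replicates were analysed. Per the deposited README files, each replicate list and the pooled list are relaxed sets of peaks and background made with a control, and the thresholded list comes from IDR. The signal column was used as the authors deposited it, to order peaks within a list, and the deposited −log10 q-value column was read by the convention of the format. The aligner, peak caller and settings are not stated in the sources used here. These lists give peaks without read counts, so depth is unknown and no interval was computed.

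Genes and transcript starts came from Ensembl release 115 (WBcel235). Summits were assigned to promoter windows and the strongest peak per gene was kept, in Python 3.11.15 with pandas 2.3.3 and numpy 2.4.6. The assignment was checked on simulated peaks. Figures used matplotlib 3.10.9. All 38 members are accounted for. Full values in every list are given for members in the thresholded list, the 8 with the highest pooled signal, those within the strongest 1000 nuclear peaks of 2 or more replicates, hsf-1 and the hsp-16 genes. From the wider lists up to 3 genes a list are named by pooled signal. The members, gene lists and thresholds were chosen with earlier results of these data known. No p-value was computed, and every comparison is a count beside all protein-coding genes. Alternatives were shorter windows, equal list lengths, a q of 0.05 and leaving out each replicate. Lists on ce10 were not used.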

Additional observations from a re-analysis of the deposited data

Results flagged for a closer look

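The percentile of cdc-48.1 over the 4 replicates was flagged because 1 replicate stood far from the others. It was 57.5 in replicate 2 and 99.5, 99.7 and 99.9 in replicates 1, 3 and 4, and the gap between replicate 2 and its nearest neighbour was 0.993 of the whole range. Chance flags about 1 in 20 such groups, and 11 groups of 4 replicate values were examined. No cause was tested.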

How the results depend on the processing

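With the promoter window cut to 1000 bp upstream, the proteasome or ubiquitin genes with a pooled peak went from 8 to 5 of 11, below the share of the chaperones (9 of 18). The share of all genes was then 19.2%, and the median percentile of members was 72.3. At 500 bp, 14 members (12.9% of all genes), 6 chaperones and 4 proteasome or ubiquitin genes had a pooled peak. A peak in every replicate was left at 2 members (1.86% of all genes), and the median percentile was 76.6. With the strongest 10000 peaks of each list, 4 members had a peak in every replicate (2.31% of all genes). A pooled peak was then found at 6 chaperones (24.2% of all genes), and the median percentile was 72.8. At a q of 0.05, 1 member had a pooled peak (0.265% of all genes), a proteasome or ubiquitin gene, while chaperones and chaperonin subunits had 0. A peak in every replicate was found at 0 members (0.05% of all genes). The median percentile of 69.8 at this threshold is that of 1 gene, cdc-48.1, among the 53 genes that passed, and says nothing about the other members. Among the strongest 2000 nuclear peaks of 2 or more replicates lay 6 members (3.92% of all genes). Leaving out 1 replicate gave 10 to 16 members with a peak in every remaining replicate (13.9% to 22.4% of all genes), with 16 and 22.4% without replicate 3. It gave 1 to 3 within the strongest 1000 (0.906% to 1.32%), with 1 without replicate 3 (1.02%) or replicate 4 (0.906%). Of 64 alternative values, 44 stayed within 1.5 times the main count or 1 SD of the main median. Leaving out hsp-16.11 and hsp-16.49, an alternative chosen after seeing the data, left 22 members with a pooled peak. The cause of these shifts was not tested. No paired analysis was possible because there was 1 group. Read depth is unknown and limits what the weak peaks can show.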
